A study of Mus musculus with 18 samples.

Results

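The 7 genes described here are the LIN28 pair Lin28a and Lin28b, and 5 genes known as targets of the let-7 microRNAs: Trim71, Hmga2, Igf2bp1, Igf2bp2 and Igf2bp3. They were taken by name from the table of counts of mouse cells, by a rule that uses no measured value, although earlier results of these data were known when the list was made. All 7 were among its 25239 genes, and all 7 had enough counts to be tested.

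LIN28A and LIN28B are RNA-binding proteins that bind let-7 precursors and block their maturation, in part by recruiting the terminal uridylyltransferases TUT4 and TUT7, after which the exonuclease DIS3L2 degrades the uridylated precursor. Mature let-7 in turn represses mRNAs that carry its seed match, LIN28 mRNAs included, so that LIN28 and let-7 hold each other down. LIN28 is high in pluripotent cells and early embryos, mature let-7 rises as cells differentiate, and LIN28 has a known role in the formation of primordial germ cells. Of the targets, TRIM71 (the homologue of nematode LIN-41) is an RNA-binding ubiquitin ligase of stem cells, HMGA2 is a DNA-binding architectural protein of chromatin, and the IGF2BP proteins bind mRNAs and act on their stability and translation. Mature microRNAs were not measured in these libraries.

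The members of the let-7 family share their seed (bases 2 to 8 of the mature strand), in capitals, which is the stretch that pairs with target mRNAs. In the mouse RefSeq annotation (GRCm38.p6), let-7a to let-7g, let-7i and miR-98 all have the seed GAGGUAG. The 4 shown are let-7a, let-7c, whose precursor lies in a host gene described below, and let-7i and miR-98, which depart from let-7a outside the seed. The place of let-7a is that of its first gene, on the minus strand like that of let-7i, and the other two are on the plus strand. Counted from 1 at the 5′ end, let-7c differs from let-7a by A19G, let-7i by G12U, A17G, U18C and A19U, and miR-98 by G11A and A19U.
mmu-let-7a-5p (chr13:48538239-48538260): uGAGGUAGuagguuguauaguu
mmu-let-7c-5p (chr16:77599672-77599693): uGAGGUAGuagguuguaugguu
mmu-let-7i-5p (chr10:122985698-122985719): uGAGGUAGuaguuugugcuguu
mmu-miR-98-5p (chrX:151913229-151913250): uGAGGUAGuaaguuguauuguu

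The letters CTACCTC, the reverse complement of that seed, were sought on the mRNA strand of the longest 3′ UTR of each gene (GENCODE M21, GRCm38). All 7 genes lie on the minus strand and all 7 held at least 1 match, against 9.02% of the 20990 genes with a 3′ UTR. There were 4 matches each in Lin28b, Trim71, Hmga2 and Igf2bp1, 2 in Lin28a and 1 each in Igf2bp2 and Igf2bp3. Of all genes 0.0572% had 4 or more. These genes have long 3′ UTRs, from 1784 bases in Igf2bp2 to 6337 in Igf2bp1 against a median of 961 over all genes, and among genes whose 3′ UTR length was within 20% of theirs the share with a match was 12.1% to 33.6%. For the 4 genes with 4 matches, the share of genes of like length with as many was 0.134% to 0.505%. In Trim71 only 2 of the 4 matches lie within the shorter gene of the RefSeq annotation. The first match of each 3′ UTR is given with its surroundings and the match in capitals, as letters that could pair with the let-7 seed. A match is a stretch of letters and not a measured site of binding. The genes were listed for their known ties to let-7, whose mRNA targets carry this match. The frequency of matches in them was therefore set in part by that choice and is no independent test. Coordinates are of GRCm38 and the letters are those of the mRNA strand.
Lin28a site 1 (chr4:134005182-134005205): cctgttgaaCTACCTCatttttgc
Lin28b site 1 (chr10:45381015-45381038): gcgggaagtCTACCTCatgcaagc
Trim71 site 1 (chr9:114512465-114512488): gcctaagtcCTACCTCagcttaaa
Hmga2 site 1 (chr10:120364217-120364240): attcaatttCTACCTCagcatcag
Igf2bp1 site 1 (chr11:95961771-95961794): cgaagtaaaCTACCTCaaggtgtg
Igf2bp2 site 1 (chr16:22059466-22059489): aaataaaagCTACCTCaggtgttt
Igf2bp3 site 1 (chr6:49086780-49086803): tttactcaaCTACCTCaggtattc

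RefSeq places Lin28a at chr4:134003330-134019196, Lin28b at chr10:45376617-45486314 and Hmga2 at chr10:120361268-120476469, the last 2 on the same chromosome and far apart. The other members are Trim71 at chr9:114511268-114564369, Igf2bp1 at chr11:95957163-96005944, Igf2bp2 at chr16:22059009-22163299 and Igf2bp3 at chr6:49085218-49215469. All 7 encode proteins. On the opposite strand, part of the span is shared with Gm13061 at Lin28a, C130032M10Rik at Trim71, 1700006J14Rik at Hmga2, Gm29202 at Igf2bp1 and Malsu1 at Igf2bp3. These partners are those of GENCODE M21, whereas counts were made on refGene, without strand and without fragments that map to several genes. Where exons meet, fragments were therefore left out if refGene holds the partner. If it does not, fragments of the partner were counted with those of the member.

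RNA-seq counts of 18 libraries were used, 2 replicates of each of 9 conditions. All cells come from E14Tg2a, a mouse embryonic stem cell line, which was wild type or lacked the open reading frames of Tet1, Tet2 and Tet3 after CRISPR/Cas9 deletion (triple knockout, TKO). The TKO cells of the study's differentiation assays are 1 clone, so genotype and clone cannot be told apart. Stem cells kept in 2i and LIF were turned into EpiLCs (epiblast-like cells) with Activin A and Fgf, and these were aggregated in suspension in GK15 medium, either without cytokines or with BMP4, BMP8a, SCF, LIF and EGF, which drive the formation of primordial germ cell-like cells (PGCLCs). EpiLCs of both genotypes, cytokine-free wild-type aggregates of days 2 and 6, wild-type PGCLCs of day 6, and TKO PGCLCs of both days in either medium made up the 9 conditions. Stem cells before this step, and wild-type aggregates at day 2 in cytokines, were not used here. The study describes the day 6 wild-type PGCLCs as SSEA1 and CD61 double-positive cells taken by sorting and the rest as whole aggregates, although the deposited labels call every sample after EpiLCs an aggregate. In every comparison with these PGCLCs, sorting and condition cannot be told apart. The deposited labels do not say that replicates are separate cultures. The study's figure legends call them biological replicates. With 2 libraries per condition, p-values measure only the spread between these libraries.

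Totals ran from 11286050 to 41257861 counts, and the ribosomal locus Rn45s took 16.2% to 47.6% of them. Tet1 and Tet3 were lower in TKO than in wild-type EpiLCs (log2 fold change −2.82 and −2.64, adjusted p = 0.000216 and 0.000220), and Tet2 did not pass the test (−1.17, adjusted p = 0.141), but did without TKO EpiLC replicate 2 (adjusted p = 0.0400; 0.0314 to 0.577 over the 24 alternatives). All 11 listed neural markers, such as Sox1, Pax6 and Tubb3, rose from wild-type EpiLCs to day 6 without cytokines, where their summed normalised count was 50197 and 49756 in the 2 libraries against 590.5 to 9552 in the other 16. Of these 11, Pax3 was at 0 in both wild-type EpiLC libraries, and Neurog1 and Neurog2 in both TKO EpiLC libraries. The 8 early germ cell markers, such as Prdm1 and Dppa3, summed to 17228 and 14492 in day 6 wild-type PGCLCs, to 3715 to 7399 in TKO PGCLCs and to 334 to 1407 elsewhere. The 6 late germline markers, such as Ddx4 and Dazl, went the other way. Their sums were 1353 and 1354 in day 6 wild-type PGCLCs and 1759 to 4947 in TKO PGCLCs. In TKO EpiLCs they were 1936.5 and 2838. In bulk RNA, fewer cells of a type and less RNA per cell cannot be told apart. The replicates of day 6 cytokine-free wild-type aggregates differed most, with a chi-square per degree of freedom of 149.8 over genes, against 6.26 to 31.1 in the other conditions.

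Across the 9 conditions Lin28a and Lin28b varied most and Igf2bp1 and Igf2bp2 least. Levels are normalised counts (counts divided by DESeq2 size factors), given for replicate 1 and then replicate 2. From the highest to the lowest condition mean the level changed 14.4-fold for Lin28a, 14.3-fold for Lin28b, 8.39-fold for Trim71, 7.24-fold for Hmga2, 3.49-fold for Igf2bp3, 2.27-fold for Igf2bp2 and 2.20-fold for Igf2bp1. The genes did not move as a block. Day 2 cytokine-free wild-type aggregates had the highest mean of Lin28a, Lin28b, Igf2bp1, Igf2bp2 and Igf2bp3. Those of day 6 had the lowest mean of Lin28a, Trim71 and Igf2bp1 and the highest of Hmga2. Day 6 wild-type PGCLCs had the lowest mean of Hmga2 and Igf2bp3. Each log2 fold change is from edgeR's quasi-likelihood test, with its standard error and a Benjamini-Hochberg adjusted p-value across the 16582 genes tested, and a gene is said to pass the test where the adjusted p is below 0.05.

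**Figure D1:**
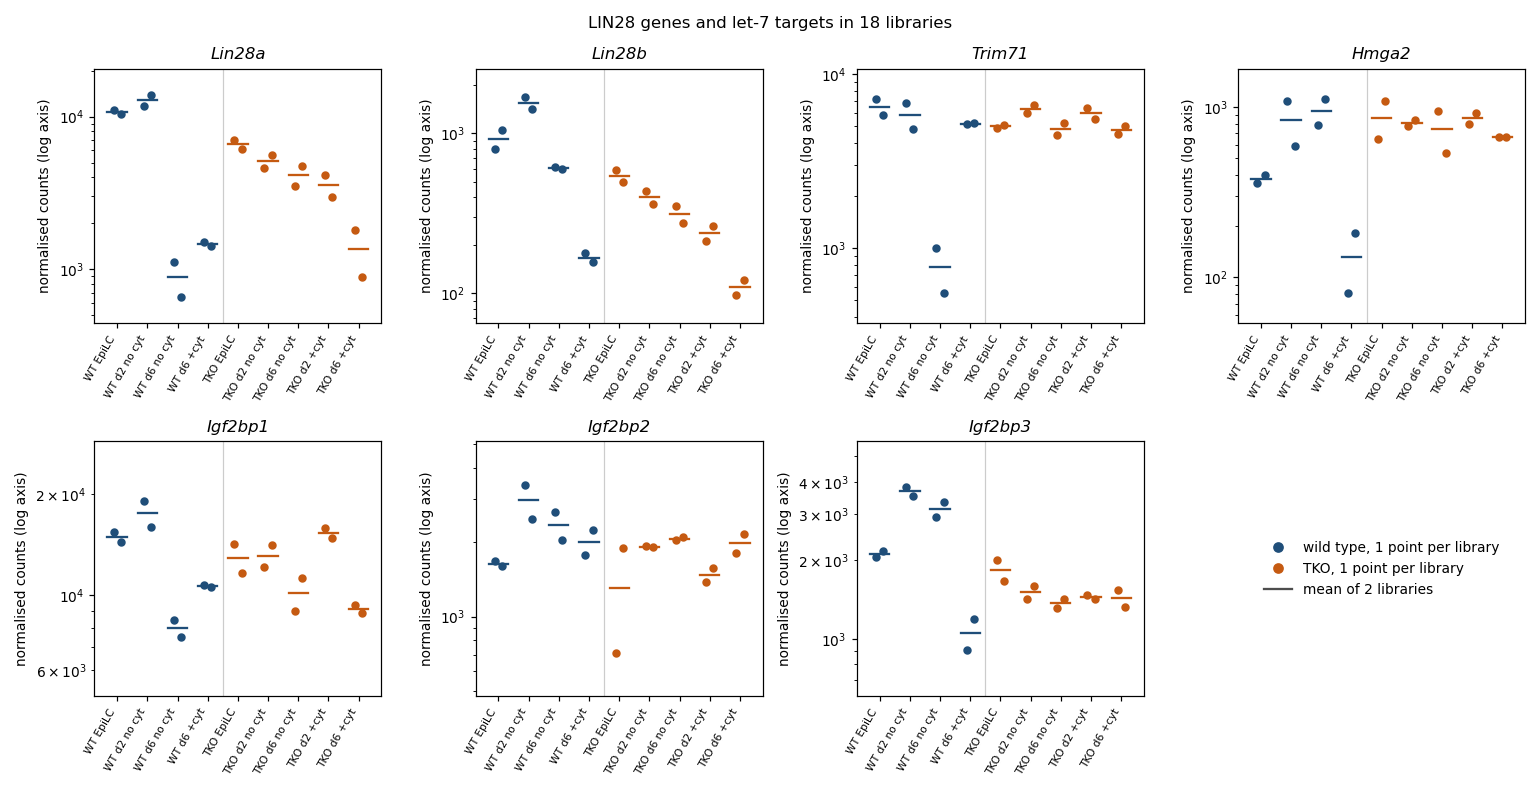
Normalised counts (log axis) of the 7 genes in the 9 conditions, with 1 point per library, a line at the mean of 2 libraries, wild type in blue and TKO in orange; cyt stands for cytokines and d for day. Trim71 is low in day 6 cytokine-free wild-type aggregates (998 and 552) and at 4449 or more in the other 16 libraries, and Hmga2 is low in day 6 wild-type PGCLCs (80.7 and 182).

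Lin28a was highest in wild-type cells at the start and fell steeply by day 6. Wild-type EpiLCs had 11104 and 10335 normalised counts and day 2 cells without cytokines 11744 and 13792. By day 6 the level was 1114 and 659 without cytokines and 1497 and 1407 in PGCLCs. The libraries of both day 6 conditions lay far below those of EpiLCs and day 2, with no overlap. Against EpiLCs Lin28a fell 12-fold without cytokines (log2 fold change −3.59, standard error 0.33, adjusted p = 2.93e-07) and 7.16-fold in PGCLCs (log2 fold change −2.84, standard error 0.32, adjusted p = 9.57e-06).

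TKO cells without cytokines had less Lin28a than wild-type cells at day 2 and more at day 6. TKO EpiLCs had 7017 and 6163 normalised counts, below both wild-type EpiLC libraries, but the difference of −0.67 (standard error 0.30, adjusted p = 0.166) did not pass the test, except in a fit of only these 4 libraries (adjusted p = 0.0271; 0.0271 to 0.435 over the 24 alternatives). In medium alone the day 2 level of TKO PGCLCs was 4602 and 5570.1 and the day 6 level 3531 and 4742, so that the 2 days overlapped. Against wild-type cells Lin28a was lower at day 2 (log2 fold change −1.36, standard error 0.30, adjusted p = 0.00304) and 4.71-fold higher at day 6 (log2 fold change 2.24, standard error 0.31, adjusted p = 2.62e-05). With cytokines it was 4167 and 2969 at day 2 and 1806 and 883 at day 6. The day 6 libraries lay on either side of those of day 6 wild-type PGCLCs, and the difference was −0.12 (standard error 0.30, adjusted p = 0.829). It was 0.31 without TKO day 6 replicate 2 with cytokines, in place of a negative value. The decrease from day 2 to day 6 with cytokines passed the test (log2 fold change −1.40, standard error 0.30, adjusted p = 0.0127) but not without day 2 replicate 1 (adjusted p = 0.152) or day 6 replicate 2 (adjusted p = 0.132; 0.000163 to 0.152 over the 24 alternatives). Ordered by mean, no step to the next passed the test from day 2 wild-type cells (12768) down to TKO day 2 with cytokines (3568). These conditions are not 1 level, since TKO and wild-type cells at day 2 without cytokines differed as given above. Then came a step of 1.29 on the log2 scale to day 6 wild-type PGCLCs (adjusted p = 0.00842). Below this step, TKO PGCLCs with cytokines and cytokine-free wild-type aggregates at day 6 did not pass the test between neighbours. The step was lost without either day 6 wild-type PGCLC library (adjusted p = 0.0563 and 0.0712) or TKO day 2 replicate 1 with cytokines (adjusted p = 0.0900; 0.000251 to 0.0900 over the 24 alternatives).

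Lin28b, the paralogue that acts largely in the nucleus, followed another course. In wild-type cells it had 798 and 1045 normalised counts in EpiLCs, 1697 and 1413 at day 2 and 614 and 602 at day 6 without cytokines. It thus rose by day 2 (log2 fold change 0.80, standard error 0.20, adjusted p = 0.00667), which did not hold without EpiLC replicate 1 (adjusted p = 0.101) or day 2 replicate 1 (adjusted p = 0.0676; 0.000494 to 0.101 over the 24 alternatives), and it fell 2.64-fold from day 2 to day 6 (log2 fold change −1.40, standard error 0.20, adjusted p = 7.87e-05). Day 6 wild-type PGCLCs had 178 and 157, below every other wild-type library. This was 5.36-fold lower than in EpiLCs (log2 fold change −2.42, standard error 0.21, adjusted p = 1.17e-06) and 3.53-fold lower than without cytokines (log2 fold change −1.82, standard error 0.21, adjusted p = 2.98e-06).

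All TKO conditions lay below wild-type EpiLCs and day 2 cells in Lin28b. It was 589 and 495 in TKO EpiLCs, 435 and 363 at day 2 and 350.0 and 275 at day 6 without cytokines, and 214 and 266 at day 2 and 97.4 and 121 at day 6 with them. No TKO library reached the lowest wild-type library without cytokines (602). Lin28b was lower in TKO than in cytokine-free wild-type aggregates at day 2 (3.98-fold; log2 fold change −1.99, standard error 0.21, adjusted p = 6.35e-06) and at day 6 (log2 fold change −0.94, standard error 0.21, adjusted p = 0.00130). In EpiLCs the difference was smaller (log2 fold change −0.74, standard error 0.20, adjusted p = 0.0303) and did not pass without wild-type replicate 2 or without either TKO library (adjusted p = 0.286, 0.0537 and 0.182; 0.00504 to 0.286 over the 24 alternatives). Within TKO PGCLCs at day 6 it was 2.83-fold lower with than without cytokines (log2 fold change −1.50, standard error 0.22, adjusted p = 0.00188), and at day 2 the value was −0.72 (standard error 0.21, adjusted p = 0.0616), which did not pass. In the order of means, day 2 wild-type cells passed the test against wild-type EpiLCs, and these against day 6 cytokine-free wild-type aggregates. From there down to TKO day 6 with cytokines, no step to the next passed the test, although the libraries of neighbours did not overlap (adjusted p = 0.0635 for the last step and more for the others).

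Per kilobase of the longest coding transcript, Lin28a was above Lin28b in all 18 libraries. The ratio of their levels was 21.4 and 15.2 in wild-type EpiLCs, 10.7 and 15.0 at day 2 without cytokines and 13.0 and 13.8 in day 6 wild-type PGCLCs. It was 2.79 and 1.69 in day 6 cytokine-free wild-type aggregates, below every other library. In the 10 TKO libraries it lay between 11.3 and 30.0, and the TKO conditions overlapped one another.

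**Figure D2:**
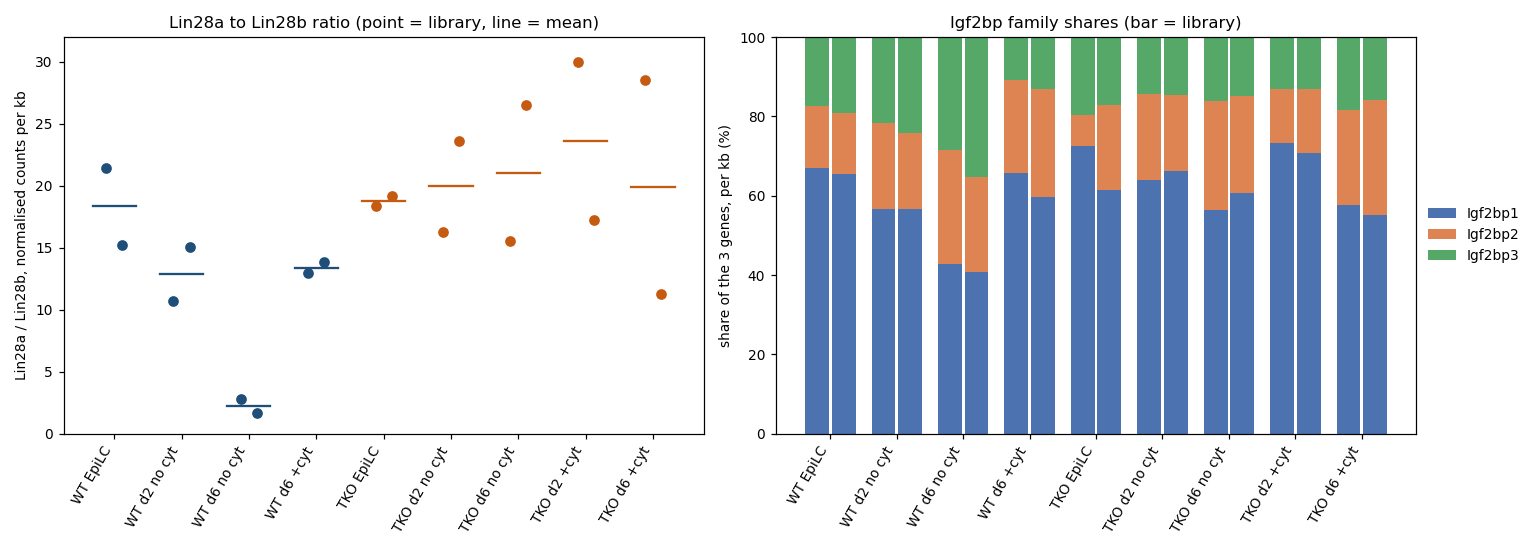
Left, ratio of Lin28a to Lin28b in normalised counts per kilobase, with 1 point per library and a line at the mean; right, share of each Igf2bp gene in the summed level per kilobase of the 3 genes, in percent, with 1 bar per library. The ratio drops to 2.79 and 1.69 in day 6 cytokine-free wild-type aggregates, where Igf2bp1 also has its smallest share (42.7% and 40.8%).

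Trim71 lay between 4449 and 7168 normalised counts in 8 of the 9 conditions and was low in the remaining one. It had 7168 and 5838 normalised counts in wild-type EpiLCs, 6786 and 4856 at day 2 without cytokines and 5146 and 5235 in day 6 wild-type PGCLCs. TKO libraries had 4925 and 5105 in EpiLCs and 4449 to 6660 in aggregates. Day 6 cytokine-free wild-type aggregates had 998 and 552. No other library came near these 2. Trim71 fell 7.70-fold from day 2 to day 6 without cytokines in wild-type cells (log2 fold change −2.95, standard error 0.25, adjusted p = 4.90e-07), was 6.86-fold higher in day 6 PGCLCs than in these cells (log2 fold change 2.78, standard error 0.25, adjusted p = 1.94e-07) and 6.31-fold higher in TKO than in cytokine-free wild-type aggregates (log2 fold change 2.66, standard error 0.25, adjusted p = 4.18e-07). The differences of Trim71 between day 6 wild-type PGCLCs and EpiLCs, −0.28 (standard error 0.23, adjusted p = 0.353), and between genotypes in EpiLCs, −0.34 (standard error 0.23, adjusted p = 0.375), and in day 6 PGCLCs with cytokines, −0.13 (standard error 0.23, adjusted p = 0.753), did not pass. In the order of means only the last step, to day 6 cytokine-free wild-type aggregates, differed from its neighbour. The low level of Trim71 went with the high neural marker sum of the same libraries and with their sum over 6 pluripotency markers of 3127 and 2845, against 8841 or more elsewhere; the part of cell makeup was not tested. Lin28a was also low in day 6 PGCLCs with cytokines of both genotypes, where the neural sum was low. In day 6 TKO cells without cytokines the neural sum was low too (2467 and 2869), and Lin28a was at 3531 and 4742. No relation between Lin28a and the neural sum was tested.

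Hmga2 was low where Trim71 was not. It had 359.9 and 397 normalised counts in wild-type EpiLCs, 1092 and 587 at day 2 and 781 and 1122 at day 6 without cytokines, and 80.7 and 182 in day 6 wild-type PGCLCs. The PGCLC libraries lay below all 16 others, although they differ from each other. Hmga2 was 7.02-fold lower in day 6 PGCLCs than without cytokines (log2 fold change −2.81, standard error 0.39, adjusted p = 2.15e-05) and 2.80-fold lower than in EpiLCs (log2 fold change −1.48, standard error 0.38, adjusted p = 0.00658), the latter not without PGCLC replicate 1 (adjusted p = 0.0847; 0.000140 to 0.0847 over the 24 alternatives). From EpiLCs to day 6 without cytokines it rose (log2 fold change 1.33, standard error 0.37, adjusted p = 0.00620).

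TKO libraries did not show this low level. Hmga2 was 647 and 1084 in TKO EpiLCs, 774 and 839.8 at day 2 and 949 and 539 at day 6 without cytokines, and 799 and 928 at day 2 and 670.2 and 672 at day 6 with them. All 10 TKO libraries were above both wild-type EpiLC libraries and lay between 539 and 1084. At day 6 with cytokines Hmga2 was 5.08-fold higher in TKO than in wild-type PGCLCs (log2 fold change 2.34, standard error 0.39, adjusted p = 0.000947), and TKO PGCLCs at day 2 were also higher than day 6 wild-type PGCLCs, with cytokines (6.52-fold, adjusted p = 0.000374) and without (6.02-fold, adjusted p = 0.000399). Without cytokines at day 6 the genotypes differed by −0.33 (standard error 0.37, adjusted p = 0.463), which did not pass and was 0.03 without TKO replicate 2. In EpiLCs the difference only just passed (log2 fold change 1.22, standard error 0.37, adjusted p = 0.0487). It was lost without either wild-type EpiLC library, without TKO EpiLC replicate 2, and without any 1 TKO library of the day 2 conditions or of day 6 with cytokines (adjusted p = 0.0626 to 0.328), as well as with RLE factors (adjusted p = 0.0544) and with the replicate number as a block (adjusted p = 0.0568; 0.00426 to 0.328 over the 24 alternatives). Among neighbours in the order of means, only the step at the lower end, from wild-type EpiLCs down to wild-type PGCLCs of day 6, passed the test.

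The 3 Igf2bp genes are paralogues that encode mRNA-binding proteins of the embryo, and Igf2bp1 was the highest of them per kilobase in every library. It had 15433 and 14397 normalised counts in wild-type EpiLCs and 19141 and 15962 at day 2, then 8451 and 7508 at day 6 without cytokines and 10712 and 10607 in day 6 PGCLCs. The decrease from day 2 to day 6 without cytokines was 2.27-fold (log2 fold change −1.18, standard error 0.18, adjusted p = 9.02e-05). In TKO cells the level was 14229 and 11652 in EpiLCs, 12141 and 14122 at day 2 and 9009.5 and 11255 at day 6 without cytokines, and 15897 and 14861 at day 2 and 9383 and 8873 at day 6 with them. Day 6 conditions of both genotypes had the 4 lowest means. In TKO PGCLCs with cytokines Igf2bp1 fell from day 2 to day 6 (log2 fold change −0.75, standard error 0.17, adjusted p = 0.0187), but not without any 1 of the 4 libraries compared (adjusted p = 0.0607 to 0.143; 0.000246 to 0.143 over the 24 alternatives). No neighbours in the order of means passed the test.

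Igf2bp2 varied least in tests: 1 of 19 comparisons passed. Its normalised counts were 1685 and 1598 in wild-type EpiLCs, 3424 and 2499 at day 2 and 2647 and 2049.7 at day 6 without cytokines and 1772 and 2253 in PGCLCs. The one change that passed was the rise to day 2 (log2 fold change 0.90, standard error 0.31, adjusted p = 0.0361), and it did not without either EpiLC library or day 2 replicate 1 (adjusted p = 0.134 to 0.229; 0.00111 to 0.229 over the 24 alternatives). TKO EpiLCs had 712 and 1893, with replicate 1 the lowest of all 18 libraries, and TKO PGCLCs 1380.3 to 2164. On this 1 library hung 3 comparisons that did not pass with both: TKO against wild-type EpiLCs (−0.30), and TKO PGCLCs of day 2 against TKO EpiLCs with (0.18) and without (0.55) cytokines. All 3 passed when replicate 2 was left out (adjusted p = 0.0116, 0.0140 and 0.00348), and had the opposite sign when replicate 1 was (0.24, −0.36 and −0.0023 on the log2 scale). The 24 alternatives gave adjusted p-values up to 0.978, 0.952 and 1.0. No neighbours in its order of means passed the test.

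Igf2bp3, like Lin28a, Lin28b, Igf2bp1 and Igf2bp2, had its highest mean in cytokine-free wild-type aggregates of day 2. Its difference from day 6 in the same medium, 0.27 (standard error 0.16, adjusted p = 0.211), did not pass the test. Its normalised counts were 2061 and 2172 in wild-type EpiLCs, 3803 and 3539.6 at day 2 and 2931 and 3355 at day 6 without cytokines and 906 and 1196 in day 6 PGCLCs. Both wild-type conditions without cytokines were above all other libraries. It rose by day 2 (log2 fold change 0.84, standard error 0.17, adjusted p = 0.00122) and was 2.91-fold lower in day 6 PGCLCs than without cytokines (log2 fold change −1.54, standard error 0.17, adjusted p = 1.57e-06). TKO EpiLCs had 2003 and 1675 and TKO PGCLCs 1320.2 to 1602 in all 4 conditions. Against cytokine-free wild-type aggregates Igf2bp3 was 2.49-fold lower at day 2 (log2 fold change −1.31, standard error 0.17, adjusted p = 3.46e-05) and 2.26-fold lower at day 6 (log2 fold change −1.18, standard error 0.17, adjusted p = 2.96e-05). In day 6 PGCLCs with cytokines both TKO libraries were above both wild-type ones, and the difference of 0.44 (standard error 0.17, adjusted p = 0.0729) did not pass, but did with DESeq2 (adjusted p = 0.0450; 0.0450 to 0.502 over the 24 alternatives). Among neighbours in the order of means, only day 6 cytokine-free wild-type aggregates and wild-type EpiLCs differed.

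Of the summed level per kilobase of the 3 paralogues, Igf2bp1 held 67.0% and 65.4% in wild-type EpiLCs and 42.7% and 40.8% in day 6 cytokine-free wild-type aggregates. Igf2bp3 held 28.6% and 35.2% in the latter and 10.7% and 13.0% in day 6 wild-type PGCLCs, its largest and smallest shares. In the 8 TKO PGCLC libraries Igf2bp1 held 55.2% to 73.2% and Igf2bp3 13.1% to 18.3%.

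**Figure D3:**
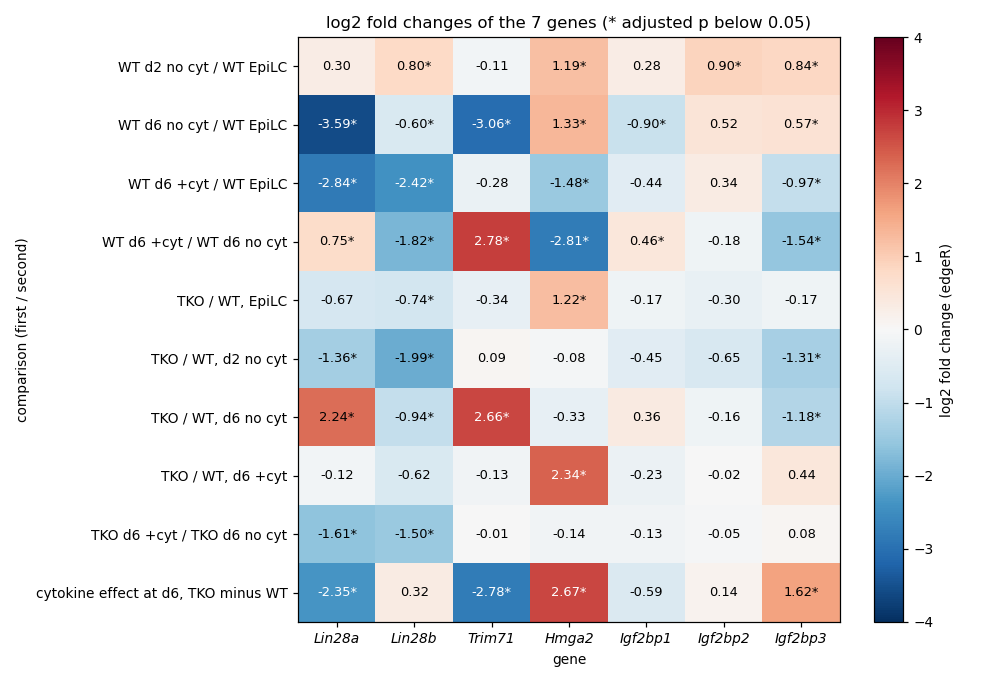
Log2 fold changes of the 7 genes (columns) in 10 comparisons (rows), red where the first group named is higher and blue where it is lower, on a scale from −4 to 4; a star marks an adjusted p below 0.05 (edgeR). The last row is the difference between the genotypes' cytokine effects at day 6, where Lin28a and Trim71 are negative (−2.35 and −2.78) and Hmga2 and Igf2bp3 positive (2.67 and 1.62).

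The first comparisons follow wild-type aggregates without cytokines. The background beside each count is the share of all genes tested that passed in either direction. From EpiLCs to day 2, 4 of the 7 genes rose and none fell, while 34.4% of all genes tested changed (18.6% rose). They were Lin28b, Hmga2, Igf2bp2 and Igf2bp3, and only Igf2bp3 passed when EpiLC replicate 1 or day 2 replicate 1 was left out; Hmga2 then had an adjusted p of 0.128 or 0.267. Hmga2 was also lost without EpiLC replicate 2 (adjusted p = 0.0816; 0.00162 to 0.267 over the 24 alternatives). From day 2 to day 6, 4 of 7 fell (background 39.5%, with 19% lower): Lin28a, Lin28b, Trim71 and Igf2bp1. Day 6 against EpiLCs gave 6 of 7 (background 60.7%), with Lin28a, Lin28b, Trim71 and Igf2bp1 lower and Hmga2 and Igf2bp3 higher. Of these, Lin28b (−0.60) was lost without EpiLC replicate 2 (adjusted p = 0.214; 0.00931 to 0.824 over the 24 alternatives) and Igf2bp3 (0.57) without EpiLC replicate 1 (adjusted p = 0.0630; 3.63e-05 to 0.0863 over the 24 alternatives). Igf2bp1 was lost when counts were scaled by library size alone (−0.21, adjusted p = 0.381; 1.96e-07 to 0.381 over the 24 alternatives). Only Lin28a and Trim71 passed the study's own limit of a log2 fold change beyond 2.

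Day 6 wild-type PGCLCs differed from EpiLCs in 4 of 7 genes (background 40.6%, with 18.2% lower), all lower: Lin28a, Lin28b, Hmga2 and Igf2bp3. Igf2bp1 was at −0.44 (standard error 0.17, adjusted p = 0.0542), which did not pass, but did with DESeq2 (adjusted p = 0.0105), with RLE factors (adjusted p = 0.0404) and without either library of day 6 without cytokines (adjusted p = 0.0295 and 0.0296; 0.00230 to 0.863 over the 24 alternatives). Against day 6 cells without cytokines, 6 of 7 differed (background 58.2%), with Trim71, Lin28a and Igf2bp1 higher and Hmga2, Lin28b and Igf2bp3 lower. The share of the 7 genes is to be read against a background in which most genes changed. Lin28a (0.75, adjusted p = 0.0438) and Igf2bp1 (0.46, adjusted p = 0.0337) were near the threshold. Lin28a did not pass without either EpiLC library, either PGCLC library, day 2 replicate 2, day 6 replicate 2 without cytokines or TKO day 2 replicate 1 without cytokines (adjusted p = 0.0502 to 0.249; 0.00654 to 0.249 over the 24 alternatives). Igf2bp1 did not without either PGCLC library or day 6 replicate 2 without cytokines (adjusted p = 0.0941 to 0.107; 0.0218 to 0.525 over the 24 alternatives).

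TKO and wild-type cells were compared in 4 conditions of the same day and medium. At day 6 with cytokines the pair is not matched otherwise, since wild-type PGCLCs were sorted and TKO PGCLCs were whole aggregates. In EpiLCs 2 of 7 genes differed (background 10.8%), Lin28b lower and Hmga2 higher, and each was lost without single libraries as given above. The 4 listed EpiLC markers (Fgf5, Otx2, Dnmt3b and Pou3f1) summed to 25502 and 24303 in TKO EpiLCs against 52892 and 57810 in wild-type EpiLCs. Of these markers 2 passed the test as lower and 0 as higher. Without cytokines, 3 of 7 were lower in TKO cells at day 2 (background 32.8%, with 14.8% lower), namely Lin28a, Lin28b and Igf2bp3. At day 6 it was 4 of 7 (background 55.4%), with Lin28a and Trim71 higher and Lin28b and Igf2bp3 lower. Markers moved with this contrast. All 11 neural markers were lower in TKO aggregates, and all 6 pluripotency, all 6 late germline and 6 of 8 early germ cell markers were higher. The pluripotency sum was 29708 and 31194 in TKO against 3127 and 2845 in wild type. Of other lineages, 5 of 6 mesoderm markers and 3 of the 4 endoderm markers tested were also higher. The mesoderm sum was 1842 and 2416 against 218 and 289.5 in wild type. The endoderm sum was 416 and 275 against 73.9 and 9.26. Of these markers only Afp, of endoderm, was at 0 in all 4 libraries, and the part of cell makeup was not tested. In day 6 PGCLCs with cytokines 1 of 7 differed (background 18.9%), which was Hmga2. Markers differed there too: 5 of 8 early germ cell markers were lower and 0 higher, and all 6 late germline markers were higher. Of endoderm markers 3 of the 4 tested were higher, and of the 11 neural ones 3 were higher and 1 lower. The parts of sorting and cell makeup were not tested. Lin28b was at −0.62 (standard error 0.22, adjusted p = 0.0635) there and did not pass, but did without either wild-type library of day 6 without cytokines (adjusted p = 0.0491 and 0.0497; 0.0491 to 0.299 over the 24 alternatives), as did Igf2bp3 (adjusted p = 0.0450 and 0.0459; 0.0450 to 0.502 over the 24 alternatives). The sorted wild-type PGCLCs also served as reference for TKO PGCLCs at day 2. With cytokines 3 of 7 were higher (background 19.9%, with 10.4% higher), namely Hmga2, Lin28a and Igf2bp1. Without cytokines 4 of 7 were higher (background 24.0%, with 13% higher), namely Hmga2, Lin28a (1.78), Lin28b (1.23) and Igf2bp3. Igf2bp1 in the former (0.52, adjusted p = 0.0467) was lost without any 1 library outside TKO EpiLCs and day 6 cytokine-free wild-type aggregates (adjusted p = 0.0536 to 0.196; 0.00933 to 0.196 over the 24 alternatives). Igf2bp3 in the latter (0.50, adjusted p = 0.0408) was lost without any 1 of 10 libraries (adjusted p = 0.0541 to 0.377; 0.00274 to 0.377 over the 24 alternatives): both of wild-type EpiLCs, replicate 1 of day 2 wild-type cells and of wild-type PGCLCs, and both of TKO day 2 in either medium and of TKO day 6 without cytokines. These comparisons share the wild-type PGCLC libraries.

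Within TKO cells few of the 7 genes moved. From EpiLCs to day 2, 0 of 7 passed with edgeR without cytokines (background 18.7%; 1 had an unadjusted p below 0.05 and DESeq2 called 0) and 1 did with them (background 14.3%), Lin28b, at −1.17 (standard error 0.21, adjusted p = 0.00168). Lin28a was at −0.88 (standard error 0.30, adjusted p = 0.0629) in the latter and passed without either library of day 6 cytokine-free wild-type aggregates or of TKO day 6 with cytokines (adjusted p = 0.0199 to 0.0262; 0.0118 to 0.302 over the 24 alternatives). From day 2 to day 6 it was 0 of 7 in cytokine-free medium with edgeR (background 0.476%, 0 by the unadjusted p and 0 with DESeq2). With cytokines 3 fell (background 6.00%, with 1.72% lower), namely Lin28a, Lin28b (−1.13) and Igf2bp1. Lin28b there was lost without day 2 replicate 2 (adjusted p = 0.0667) or day 6 replicate 1 (adjusted p = 0.0690; 0.000262 to 0.0690 over the 24 alternatives). Between media at day 2, 0 of 7 passed with edgeR (background 4.52%; 1 had an unadjusted p below 0.05 and DESeq2 called 1), although Lin28b did without either library of day 6 cytokine-free wild-type aggregates (adjusted p = 0.0302 and 0.0312) and with DESeq2 (adjusted p = 0.0215; 0.0118 to 0.356 over the 24 alternatives). At day 6 the 2 LIN28 genes were lower with cytokines and the 5 targets did not pass (background 5.61%). Lin28a (log2 fold change −1.61, standard error 0.31, adjusted p = 0.00799) was lost without replicate 2 of either condition (adjusted p = 0.0801 without cytokines and 0.0641 with them; 1.83e-05 to 0.0801 over the 24 alternatives).

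Whether cytokines acted differently in the 2 genotypes at day 6 was tested as an interaction, the log2 effect of cytokines in TKO cells minus that in wild-type cells, and 4 of 7 genes passed (background 42.9%). In wild type this effect sets sorted PGCLCs against whole aggregates. For Lin28a the effects were 0.75 in wild-type and −1.61 in TKO cells, a difference of −2.35 (standard error 0.43, adjusted p = 0.000467). Each of these 2 effects was lost without single libraries, as given above. For Trim71 the effects were 2.78 and −0.01 (difference −2.78, standard error 0.33, adjusted p = 1.02e-05). For Hmga2 they were −2.81 and −0.14 (difference 2.67, standard error 0.53, adjusted p = 0.000941), and for Igf2bp3 −1.54 and 0.08 (difference 1.62, standard error 0.23, adjusted p = 6.29e-05). Lin28b fell with cytokines in both genotypes (−1.82 and −1.50). Igf2bp1 was at −0.59 (standard error 0.24, adjusted p = 0.0631), and passed with DESeq2 (adjusted p = 0.0362) and without replicate 1 of day 6 without cytokines of either genotype (adjusted p = 0.0372 for wild type and 0.0474 for TKO; 0.0336 to 0.231 over the 24 alternatives). The same kind of test of the step from EpiLCs to day 2 without cytokines gave 2 of 7 genes (background 12.3%, with 6.19% negative). Both had a lower change in TKO cells: Lin28b at −1.25 (standard error 0.29, adjusted p = 0.0102) and Igf2bp3 at −1.14 (standard error 0.23, adjusted p = 0.00507). Lin28b was lost without wild-type EpiLC replicate 1 (adjusted p = 0.0628) or TKO day 2 replicate 2 without cytokines (adjusted p = 0.0586; 0.00160 to 0.0628 over the 24 alternatives).

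Genes that process or degrade let-7 precursors changed in both directions. Of 15 on a list of these (the uridylyltransferases, DIS3L2, the Drosha and Dicer complexes, exportin 5, the Argonautes and the regulators Khsrp and Msi1), day 6 cytokine-free wild-type aggregates had 7 higher and 6 lower than EpiLCs (60.7% of all genes changed; median log2 fold change 0.64, against 0.05 over all genes). Those of largest change were Ago4 (5.21, from 2 and 10 raw counts), Msi1 (4.08), Prkra (2.15) and Ago1 (1.58). Msi1 encodes Musashi1, an RNA-binding protein of neural stem cells, and its normalised counts of 4472 and 4944 went with the neural marker sum of the same libraries. In day 6 wild-type PGCLCs against these cells 5 higher and 5 lower were found (58.2% of all genes changed), led by Msi1 (−4.59), Ago4 (−2.77), Prkra (−2.24) and Ago1 (−1.87), all lower, and against EpiLCs 3 higher and 3 lower (40.6%). Between genotypes, EpiLCs had 2 higher and 0 lower in TKO cells (10.8%), namely Ago4 (2.16) and Msi1 (0.85). Neither passed without wild-type EpiLC replicate 1 (adjusted p = 0.104 and 0.156) or TKO EpiLC replicate 2 (adjusted p = 0.0781 and 0.0509; 0.00221 to 0.156 over the 24 alternatives), nor Ago4 without wild-type replicate 2 (adjusted p = 0.0816; 0.00341 to 0.104 over the 24 alternatives). Without cytokines day 6 TKO cells had 3 higher and 6 lower than wild-type ones (55.4%). In day 6 PGCLCs with cytokines (18.9% of all genes) Msi1 was higher (1.86) and Drosha (−0.69) and Xpo5 (−0.55) lower in TKO cells, Xpo5 not without replicate 1 of either genotype (adjusted p = 0.246 and 0.151; 0.00469 to 0.246 over the 24 alternatives).

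The let-7 precursor genes themselves held few counts. None of the 12 in the table exceeded 68 raw counts in any library, Mirlet7b and Mirlet7c-2 were at 0 in all 18, and their summed raw counts ran from 13 to 221, and in normalised counts from 21.8 to 100.2. Day 6 cytokine-free wild-type aggregates had normalised sums of 100.2 and 70.6, which overlap those of day 2 (40.0 and 75.4). These are fragments over the precursor's exon and say nothing of the mature strand. Of the host genes, Mir100hg, whose transcript holds let-7a-2, had 1020 and 233 raw counts in day 6 cytokine-free wild-type aggregates, 69 and 9 in TKO cells of the same day and medium, and 17 or fewer in the other 14 libraries. Mir99ahg, the host of let-7c-1, had 427 and 77 and at most 5 elsewhere. Both passed the test against EpiLCs with edgeR (adjusted p = 3.19e-05 and 0.000113); Mir99ahg did not with DESeq2 (adjusted p = 0.175; 5.32e-09 to 0.175 over the 24 alternatives). Per unit of depth Mir100hg was 988-fold higher than in wild-type EpiLCs, where the 2 libraries held 1 count in all (95% exact counting interval 177 to 39073), and 611-fold higher than in day 6 wild-type PGCLCs with 2 counts (169 to 5049). Mir99ahg was at 0 in both, and with 3 counts set for each of their libraries it was at least 43.6-fold and at least 70.4-fold higher. These intervals and bounds cover counting error only. The precursors inside these hosts, Mirlet7a-2 (24 and 4) and Mirlet7c-1 (22 and 4), were at 2 counts or fewer in every other library. The condition with these host transcripts is the one in which Lin28a and Trim71 were lowest and the neural markers highest; no relation between them was tested.

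**Figure D4:**
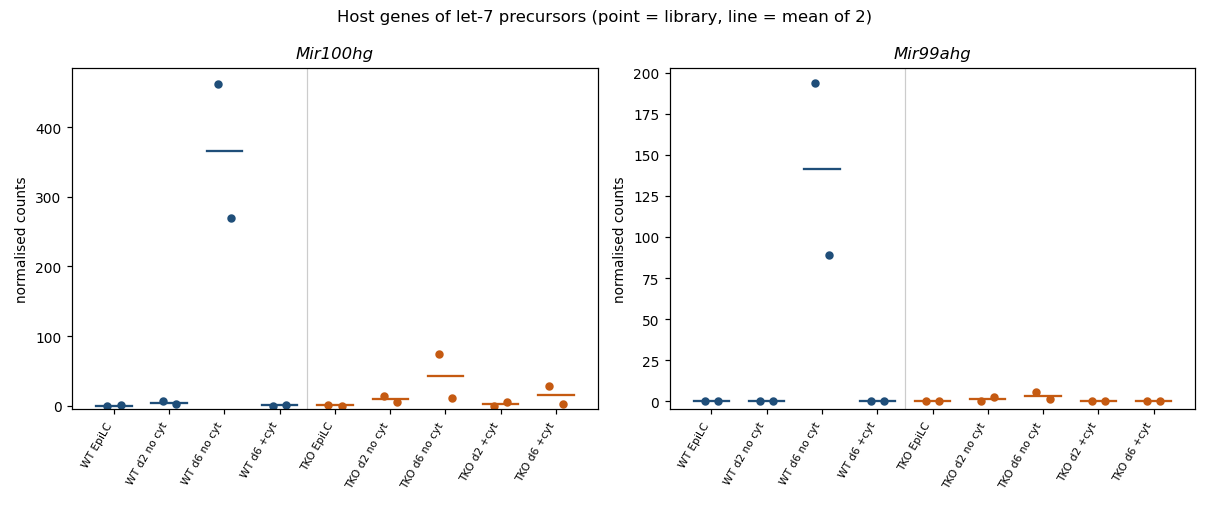
Normalised counts of Mir100hg and Mir99ahg, host genes of the let-7a-2 and let-7c-1 precursors, in the 9 conditions, with 1 point per library and a line at the mean of 2. Both are highest in day 6 cytokine-free wild-type aggregates (462 and 269.8 for Mir100hg, 194 and 89.2 for Mir99ahg) and near 0 in most other libraries.

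A list of other genes known as let-7 targets, 18 of them tested, moved in both directions. More of them were higher than lower at day 2 in wild-type cells against EpiLCs (7 and 4, where 34.4% of all genes changed), in TKO PGCLCs of day 2 against wild-type PGCLCs with cytokines (4 and 1, 19.9%) and without (5 and 3, 24.0%), and in the interaction at day 6 (6 and 5, 42.9%). Against EpiLCs, 3 were higher and 9 lower in day 6 wild-type PGCLCs (40.6% of all genes changed; median −0.62 on the log2 scale, against 0.07 over all genes), with Prdm1 (4.91) and Arid3a (2.55) higher and the cell cycle gene Ccnd1 (−3.33) and Myc (−3.04) lower. Prdm1 encodes BLIMP1, a regulator of germ cell specification, and is also on the early germ cell list. Against day 6 cells without cytokines there were 5 higher and 9 lower (58.2%; median −0.53, all genes 0.01), led by Prdm1 (8.91), Ccnd2 (−5.13), Ccnd1 (−2.96) and the receptor gene Tgfbr1 (−2.47). Without cytokines day 6 had 5 higher and 9 lower than EpiLCs (60.7%), where Ccnd2 rose most (6.40). In TKO against wild-type EpiLCs 1 higher and 5 lower were found (10.8%; median −0.17, all genes 0.04), with Cdk6 (−2.27), Ccnd1 (−1.84) and Mycn (−1.66) lower; Cdk6 did not pass without replicate 2 of either genotype (adjusted p = 0.0604 for wild type and 0.0605 for TKO; 1.20e-05 to 0.0605 over the 24 alternatives). Day 6 gave 3 higher and 7 lower without cytokines (55.4%) and 1 higher and 5 lower with them (18.9%), where Prdm1 (−3.51), Cdk6 (−2.50), Mycn (−1.66) and Arid3b (−1.10) were lower. In that comparison Prdm1 was lower in TKO cells and Hmga2 higher. Of the 4 mRNAs listed as bound by TRIM71 (Cdkn1a, Egr1, Rbl1 and Rbl2), 3 higher and 0 lower were found in day 6 wild-type PGCLCs against EpiLCs (40.6% of all genes) and 3 higher and 1 lower without cytokines (60.7%). For day 6 PGCLCs against cells without cytokines, where Trim71 itself differed, the count was 1 higher and 1 lower (58.2%). In TKO against wild-type cells it was 2 higher and 0 lower in EpiLCs (10.8%), 0 higher and 1 lower at day 6 without cytokines (55.4%) and 0 higher and 1 lower with them (18.9%).

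The genes nearest to each of the 7 by Pearson's r over the 9 condition means of log2 normalised counts, among 11996 genes with a mean of 50 or more, are given as a description. For Lin28a they were Maoa (0.972), Pcdh1 (0.959), Pim2 (0.957); for Lin28b Psip1 (0.972), Zfp266 (0.971), Rian (0.971). For Trim71 they were Iqgap1 (0.989), Zscan10 (0.989), Cd2ap (0.986); for Hmga2 Mthfsd (0.952), Ubqln2 (0.950), Fam199x (0.940). For Igf2bp1 they were Eif3i (0.955), Epha1 (0.952), Nudt5 (0.951), for Igf2bp2 Atp2b1 (0.982), Evc2 (0.968), Usp13 (0.963) and for Igf2bp3 Fut11 (0.993), Limd2 (0.980), Tmem132a (0.971). None of these 21 is among the 7. Within the 7, Lin28a was closest to Igf2bp1 (0.87) and Lin28b to Igf2bp3 (0.84), while the 2 LIN28 genes had 0.68 with each other and Hmga2 had −0.25 with Trim71. The 9 points share libraries and size factors with all genes, and a condition mean rests on 2 libraries.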

How the data were processed

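Total RNA of the 18 libraries was depleted of ribosomal RNA and sequenced in pairs. Per the study's methods and the file headers, the authors trimmed reads with Trim Galore 0.5.0 and cutadapt 1.16, aligned them to mm10 with STAR 2.7.1a and made counts per gene with featureCounts of Subread 1.5.2, on exons of the refGene annotation, without strand and without fragments that map to several places or genes. The deposited values are these raw counts, of which 33 rows that name no gene were left out. Groups were taken from the sample titles.

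Genes with low counts were removed with the default filter of edgeR 4.0.16, which left 16582 of 25239, all 7 members among them. The quasi-likelihood test was applied to 1 model of 9 condition means with TMM factors, and p-values were adjusted over all genes tested, after tests on simulated data. The common biological coefficient of variation was 0.222, and with 2 replicates small differences can be missed. Levels are counts divided by DESeq2 1.42.0 size factors. Named genes were the 7 members, Tet1 to Tet3, the hosts of let-7 precursors, for each list the genes of largest change, and the 3 genes most like each member. The members and lists were chosen with earlier results of these data known. Alternatives were no filter, RLE factors, library size alone, a replicate block, a fit of only the libraries compared, DESeq2 and leaving out each library, 24 in all. The analysis ran in R 4.3.3.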

Additional observations from a re-analysis of the deposited data

Results flagged for a closer look

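At day 6, 42.9% of all genes tested passed the test of the interaction (edgeR, adjusted p-values in the results). In 4 of the 7 genes the effect of cytokines at day 6 differed between the genotypes in that test. TKO minus wild type, on the log2 scale, it was −2.78 for Trim71 and −2.35 for Lin28a, and 2.67 for Hmga2 and 1.62 for Igf2bp3. The wild-type PGCLCs in this contrast were sorted and the other 3 conditions were not, and the wild-type cells without cytokines carried the high neural marker sum. The part of either was not tested.

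In the step from EpiLCs to day 2 without cytokines, the log2 change was lower in TKO than in wild-type cells for Lin28b, by a difference of −1.25, and for Igf2bp3, by −1.14. No sorted cells enter this contrast, which 12.3% of all genes tested passed.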

How the results depend on the processing

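Of the 53 tests of the 7 genes that passed, 33 kept their direction and stayed past the threshold under all 24 alternatives, and 1179 of the 1272 values did so. Scaling by library size alone moved the median over all genes by up to 0.73 on the log2 scale, and under it Lin28b in day 6 cytokine-free wild-type aggregates against EpiLCs went to 0.0722 and Trim71 in day 6 wild-type PGCLCs against EpiLCs to 0.12, both below the median of all genes in that comparison (0.73 and 0.45). The 2 genes of TKO against wild-type EpiLCs became 1 with RLE factors, with library size alone and with the replicate block. The 1 gene of TKO against wild-type PGCLCs at day 6 became 2 with DESeq2. Between media in TKO PGCLCs at day 2, 0 became 2 with library size alone, 1 with only the libraries compared and 1 with DESeq2. From TKO EpiLCs to day 2 with cytokines, 1 became 2 with no filter, with only the libraries compared and with DESeq2, and without cytokines 0 became 2 with library size alone. The log2 range of Trim71 over conditions was 3.07 in normalised counts and 2.37 in CPM. Unless a value shows it, the cause was not tested.

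Leaving out 1 library gave 1 to 4 genes for wild-type EpiLCs to day 2, 0 to 2 for TKO against wild-type EpiLCs, 1 to 3 for day 6 PGCLCs of the 2 genotypes and 1 to 4 for TKO day 2 with cytokines against wild-type PGCLCs. It gave 0 to 1 between media in TKO at day 2 and 1 to 2 at day 6, 1 to 2 and 0 to 1 from TKO EpiLCs to day 2 with and without cytokines, 1 to 3 for TKO day 2 to day 6 with cytokines, and 1 to 2 for the interaction at day 2. Lin28a in TKO against wild-type PGCLCs at day 6 ran from −0.73 to 0.31, and Hmga2 in TKO against wild-type cells at day 6 without cytokines from −0.80 to 0.0279. Igf2bp2 ran from −1.18 to 0.24 in TKO against wild-type EpiLCs, and from −0.36 to 1.06 with cytokines and −0.0023 to 1.42 without them from TKO EpiLCs to day 2.

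The replicate numbers did not pair the samples: over 36 pairs of conditions the correlation of same-numbered libraries' deviations ran from −0.16 to 0.18 and exceeded 0.1 in 7. With the replicate block, Hmga2 in EpiLCs (adjusted p = 0.0568 with edgeR) and Igf2bp1 in TKO day 2 with cytokines against wild-type PGCLCs (adjusted p = 0.0548) were lost, and no other call of the 7 genes. No let-7 precursor exceeded 68 counts in any library, which bounds how precisely their levels are known.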
